A study of Mus musculus with 24 samples.

Results

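The beta-thymosins Tmsb4x and Tmsb10, the profilins Pfn1 and Pfn2, the cofilins Cfl1 and Cfl2 and the cytoplasmic actins Actb and Actg1 were followed in RNA-sequencing data of mouse EO771 mammary carcinoma cells. These are 8 of the 13915 genes counted in both batches, matched by symbol in the batch 2 table and by Ensembl identifier in the batch 1 table, which lists 55471 genes. The genes were selected on earlier results of these data, because Tmsb4x was known to be higher with CCR7. The values of Tmsb4x are therefore given as a description with no test in every comparison, and counts of members called are over the other 7 genes. Tmsb4x (ENSMUSG00000049775) is at chrX:167207093-167209315 of GRCm38 and Tmsb10 (ENSMUSG00000079523) at chr6:72957347-72958748. Pfn1 (ENSMUSG00000018293) is at chr11:70651850-70654644, Pfn2 (ENSMUSG00000027805) at chr3:57841895-57848079, Cfl1 (ENSMUSG00000056201) at chr19:5490455-5495201 and Cfl2 (ENSMUSG00000062929) at chr12:54858809-54862877. Actb (ENSMUSG00000029580) is at chr5:142903115-142906754 and Actg1 (ENSMUSG00000062825) at chr11:120345690-120348542. All but Cfl1 are on the minus strand, and counts are over their annotated exons.

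EO771 is a cell line from a spontaneous mammary tumour of C57BL/6 mice. X2 cells carried the retroviral pLNCX2 vector as a control, and CCR7 cells carried mouse Ccr7 cDNA and were enriched by cell sorting as a population that was not cloned. The tdTomato reporter was introduced for tracing, and the methods do not spell out whether X2 cells received it in the same vector. CCR7-PDPN and X2-PDPN cells were sorted from them for podoplanin (PDPN), a surface glycoprotein that some cells had upregulated spontaneously, and the CCR7 cells were the sorted PDPN-negative cells. Batch 1 held X2, CCR7 and CCR7-PDPN, batch 2 held X2, X2-PDPN and CCR7-PDPN, and each group had 4 libraries that were technical replicates of 1 population, so that p-values measure the spread between libraries only.

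The 24 libraries held 22275468 to 35721027 counts, and intervals from reads cover counting error only. Ccr7 stood at 5311 to 5911 TPM (transcript abundance per length, scaled to a fixed total) in the 3 groups of CCR7 cells and at 0.644 to 1.25 TPM in the others, and Pdpn at 49.9 to 52.9 TPM in the 3 PDPN groups and at most 0.853 TPM elsewhere. The mesenchymal marker Vim was at 1848 to 2340 TPM and the epithelial keratin Krt8 at 425 to 560 TPM, whereas Krt18 did not exceed 9 reads in batch 1. Of 7 leukocyte markers, the lysozyme gene Lyz2 was the main one with reads, at 19.4 TPM in X2, 5.36 in CCR7 and 2.01 in CCR7-PDPN of batch 1, and Ptprc, which defines leukocytes, had at most 4 reads in a library of batch 1. The summed leukocyte markers thus spanned 17.96 to 21.1 TPM in X2 and 4.02 to 6.46 TPM in CCR7, 3 and 4 of the 7 having no read in any library of those groups. Endothelial markers summed to at most 1.41 TPM per library and erythroid markers in batch 1 to at most 1.15 TPM. Fibroblast markers summed to 93.8 to 123 TPM, all sums being over the markers that each table lists. Nearly all of the fibroblast sum was Pdgfra and Pdgfrb. Dcn had at most 3 reads in a library of batch 1 and Lum had 0, and neither is listed in batch 2. Whether fibroblasts were present was not tested.

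Actin works as a pool of monomers in exchange with filaments. Beta-thymosins bind monomers and hold them in reserve, profilins pass monomers to growing filament ends, and cofilins sever ageing filaments and return monomers to the pool. Tmsb4x lies on the X chromosome and is abundant in motile cells and leukocytes, whereas Actb and Actg1 encode the actins of nearly every cell.

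The coding sequences of both beta-thymosins are shown because they decide whether reads of a silent gene can be told from those of its abundant relative. They were taken from GENCODE M21 (GRCm38), the Tmsb4x sequence between chrX:167207501-167208036 and the Tmsb10 sequence between chr6:72957618-72958012, both on the minus strand and each joined from its exons. Capitals mark the 40 bases that differ.
Tmsb4x: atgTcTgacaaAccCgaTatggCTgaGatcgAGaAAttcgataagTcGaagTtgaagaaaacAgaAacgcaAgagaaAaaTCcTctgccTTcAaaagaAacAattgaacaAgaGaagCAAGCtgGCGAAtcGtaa
Tmsb10: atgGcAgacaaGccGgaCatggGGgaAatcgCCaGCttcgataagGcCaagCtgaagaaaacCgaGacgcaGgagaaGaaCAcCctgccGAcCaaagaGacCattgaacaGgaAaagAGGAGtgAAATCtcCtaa
Both have 135 coding bases, of which 95 (70.4%) were the same, and of 44 encoded residues 33 (75.0%) were the same. The longest run shared at the same place was 10 bases, far under the 75 bases of a read. Between Pfn1 and Pfn2 88 of 140 residues were the same, between Cfl1 and Cfl2 135 of 166, and between Actb and Actg1 371 of 375, with a longest shared run of 62 bases.

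Other rows could still take reads. Of 1337 windows of 75 bases in the annotated transcripts of Tmsb4x, 0 recurred in another annotated gene. The transcript most like it was that of the processed pseudogene Gm43222 (594 aligned bases, 75.6% identical), which had 0 reads in every library of batch 1. For Tmsb10 231 of 1200 windows (19.2%) recurred in Gm9844 and Gm3788, for Cfl1 377 of 2920 (12.9%) recurred in Gm6180 and in the overlapping gene Snx32, and for Actg1 1023 of 3058 (33.5%) recurred in 10 genes, with most in the pseudogene Gm12715. Pfn1 and Pfn2 shared none, Cfl2 9 of 3407 and Actb 48 of 3032. Gm9844, named Tmsb10b in batch 2, had 31 to 82 reads per library, against 14656 to 27245 for Tmsb10, and Gm12715 had 35 to 57 reads per library of batch 1 against at least 5682 for Actg1. Among the other genes named Tmsb in the batch 1 table, Tmsb15a and Tmsb15l had at most 1 read in a library and Tmsb15b1 and Tmsb15b2 had 0. Adding the pseudogene rows to the members changed no call of any member. The setting for shared reads is not given, and reads that fit several genes equally may not have been counted in any row. The check therefore cannot show whether Tmsb10, Cfl1 or Actg1 lost such reads. Sequence outside annotated transcripts was not analysed here.

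Tmsb4x was close to silent in X2 and was counted in every library with CCR7. In batch 1 the X2 libraries had 2, 3, 4 and 4 reads, the CCR7 libraries 396, 341, 420 and 279, and the CCR7-PDPN libraries 102, 86, 89 and 82. In batch 2 there were 4, 3, 5 and 3 reads in X2, 93, 98, 137 and 125 in CCR7-PDPN, and 0, 1, 1 and 0 in X2-PDPN, where a count of 0 allows up to 3 reads. No library of a CCR7 population overlapped one without CCR7, and CCR7 and CCR7-PDPN did not overlap either. As a level, Tmsb4x in batch 1 was 0.312 ± 0.0825 TPM (SD, n = 4) for X2, 33.8 ± 0.997 TPM for CCR7 and 7.99 ± 0.683 TPM for CCR7-PDPN. The level in batch 2 was 0.352 ± 0.0866 TPM for X2, 0.0421 ± 0.0491 TPM for X2-PDPN and 10.9 ± 1.68 TPM for CCR7-PDPN. In order from lowest to highest these were X2-PDPN, X2, CCR7-PDPN and CCR7, and neighbours in that order did not overlap within a batch.

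The log2 fold change of Tmsb4x was 6.70 (standard error 0.15) in CCR7 against X2, and the ratio of summed reads scaled by library totals was 107 (95% exact interval 62.1 to 200.5). CCR7-PDPN stood above X2 by 4.65 (standard error 0.20) in the first batch and by 4.92 (standard error 0.25) in the second, with read ratios of 25.5 (14.7 to 48.3) and 30.6 (18.4 to 55.2). CCR7-PDPN lay below CCR7 by a log2 fold change of -2.05 (standard error 0.08), a read ratio of 0.239 (0.212 to 0.269). Among the 13030 genes tested in both batches Tmsb4x ranked 3 from the top in CCR7 against X2 and 10 and 8 from the top in CCR7-PDPN against X2 of batch 1 and batch 2. The gene was chosen for its rise with CCR7, so these high ranks follow from the choice and add no support. In bulk RNA, fewer cells with a transcript and less of it per cell cannot be told apart, so these levels are averages over each population. Between X2 and CCR7 the leukocyte-expressed Lyz2 went the other way, with 154 to 214 reads per X2 library and 45 to 65 per CCR7 library, and Ptprc was near 0 in both; the part of other cells in the result was not tested.

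Without CCR7 the gene had few reads in both populations. X2-PDPN had 2 Tmsb4x reads in its 4 libraries together and X2 of batch 2 had 15, a read ratio of 0.125 (0.0139 to 0.537) and a fitted log2 difference of -2.70 (standard error 0.81). Tmsb4x passed the filter on low counts in batch 2 through the CCR7-PDPN libraries and did not pass it with these groups alone. This difference, its standard error and the read interval are thus a description as well and serve as no test. CCR7-PDPN stood above X2-PDPN by a log2 fold change of 7.63 (standard error 0.35), with a read ratio of 245 (67.5 to 2032). The PDPN difference with CCR7 minus that without was 0.65 (standard error 0.63) for Tmsb4x, a 95% interval of -0.59 to 1.89.

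**Figure D1:**
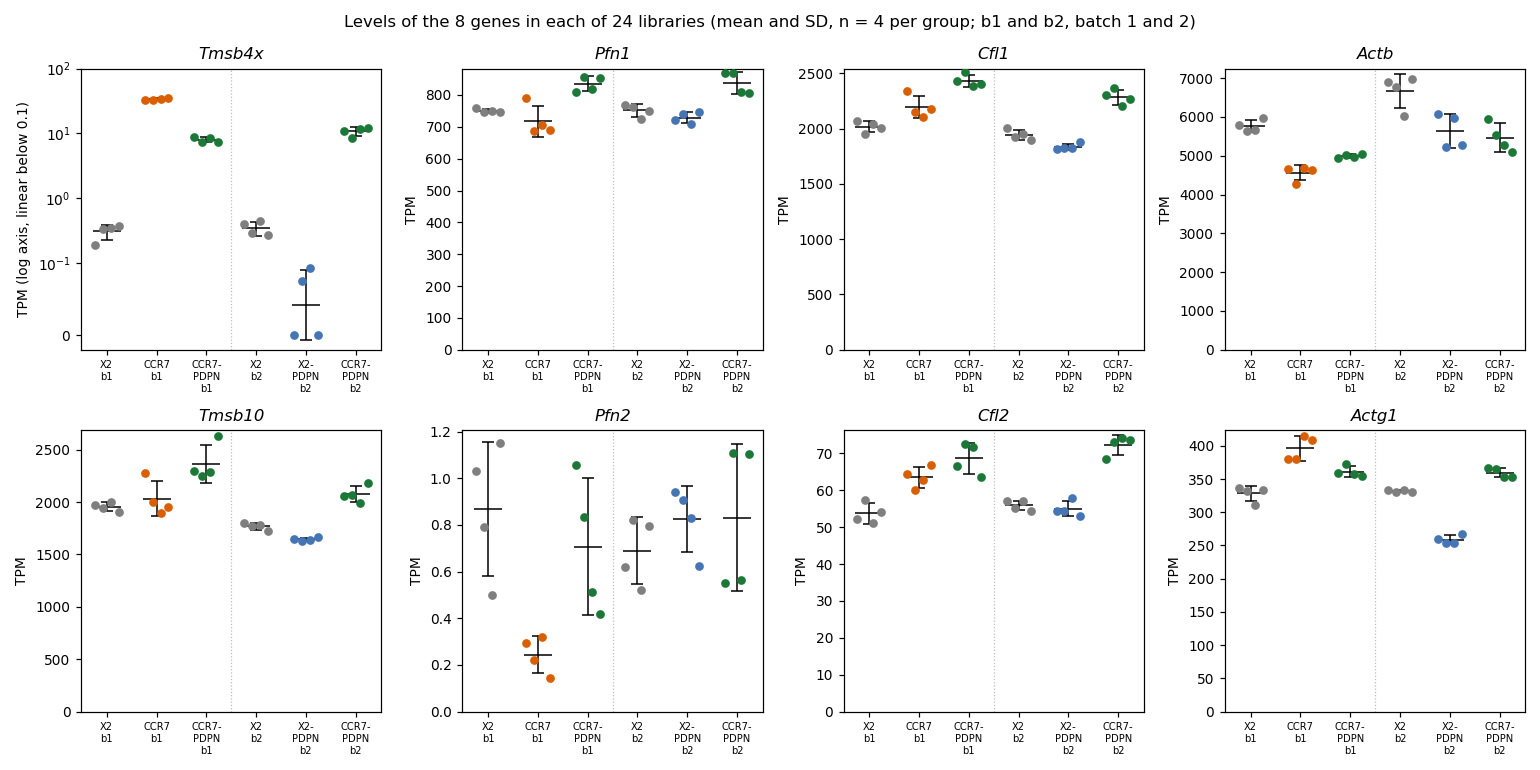
Level of each gene in TPM (vertical axes; a log axis that is linear below 0.1 for Tmsb4x, linear from 0 for the others) in the 24 libraries, by group on the horizontal axes, with batch 1 left and batch 2 right of the dotted line. Points are libraries and bars the mean and SD (n = 4); Tmsb4x spans 0 to 34.7 TPM, whereas Tmsb10 stays between 1629 and 2633 TPM.

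Upstream of all annotated Tmsb4x transcripts lie the 153 bases at chrX:167209316-167209468 of the minus strand, from the RefSeq promoter sequence of GRCm38.p6, shown because this gene had the largest difference among the 8. Capitals mark a GC box (GGGCGG) and the reverse of the core of a cAMP response element (TGACGT, read here as its reverse complement).
Tmsb4x upstream: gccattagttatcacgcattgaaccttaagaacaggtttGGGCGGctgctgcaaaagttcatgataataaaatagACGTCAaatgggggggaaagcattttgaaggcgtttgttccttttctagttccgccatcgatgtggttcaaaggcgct
Over 32851 windows of 250 bases before a start site, searched on both strands, 32.7% held the GC box and 6.47% the cAMP response element core. Neither the TATA box (TATAAA, in 12.4% of windows) nor the serum response factor motif called the CArG box (1.47%) was matched for Tmsb4x. Its window, chrX:167209219-167209468, holds the 153 bases shown and runs on into the annotated gene. Of the 7 members with a promoter in the table, which lacks Actb, Actg1 alone had a CArG box match. A GC box was matched for 6 of them, Cfl1 being the exception. The cAMP response element core was matched before Cfl2 as well as before Tmsb4x. A match is a description of letters, not a site.

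Tmsb10 carried nearly all beta-thymosin transcript in every group. Its levels in TPM in batch 1 were 1971, 1947, 2004 and 1906 for X2, 2275, 1996, 1897 and 1956 for CCR7, and 2293, 2247, 2287 and 2633 for CCR7-PDPN. X2 and CCR7 overlapped, and Tmsb10 did not pass the test between them (log2 fold change 0.05, standard error 0.06, edgeR adjusted p = 0.54). It was higher in CCR7-PDPN than in CCR7 (log2 fold change 0.25, standard error 0.06, edgeR adjusted p = 0.0095), although 1 CCR7 library lay among the CCR7-PDPN libraries, and higher than in X2 (0.30, standard error 0.06, edgeR adjusted p = 0.0017). In batch 2 the X2 libraries had 1799, 1772, 1777 and 1722 TPM of Tmsb10, the X2-PDPN libraries 1652, 1629, 1635 and 1662, and the CCR7-PDPN libraries 2060, 2071, 1990 and 2182. These 3 groups did not overlap. X2-PDPN had less Tmsb10 than X2 (log2 fold change -0.11, standard error 0.03, edgeR adjusted p = 0.00053), and higher in CCR7-PDPN than in either X2-PDPN (0.36, standard error 0.03) or X2 (0.25, standard error 0.03), both of which passed the test.

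As a share of Tmsb4x and Tmsb10 transcripts together, Tmsb4x was a small minority even with CCR7. In batch 1 its share was 0.0160% ± 0.00434 (SD, n = 4) for X2, 1.64% ± 0.154 for CCR7 and 0.339% ± 0.0447 for CCR7-PDPN. In batch 2 it was 0.0199% ± 0.00466 for X2, 0.00258% ± 0.00301 for X2-PDPN and 0.522% ± 0.0790 for CCR7-PDPN. The group means of Tmsb4x spanned 0.0421 to 33.8 TPM and those of Tmsb10 1644 to 2365 TPM.

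Pfn1, the ubiquitous profilin, was lower than Tmsb10 in level and, like it, was highest in CCR7-PDPN of each batch. In TPM, the libraries of batch 1 spanned 747 to 758 for X2, 686 to 789 for CCR7 and 810 to 856 for CCR7-PDPN. Those of batch 2 spanned 723 to 769 for X2, 708 to 746 for X2-PDPN and 807 to 868 for CCR7-PDPN. CCR7-PDPN thus lay above all other groups of its batch. Pfn1 passed the test with log2 fold changes of 0.24 (standard error 0.04) against CCR7, 0.18 (standard errors 0.04 and 0.03) against X2 in both batches, and 0.23 (standard error 0.03) against X2-PDPN. Its difference between CCR7 and X2 was -0.07 (standard error 0.04, edgeR adjusted p = 0.18), and without CCR7 replicate 1, which held the highest CCR7 value, it became -0.12 and passed (edgeR adjusted p = 0.000595). X2-PDPN against X2 gave -0.05 (standard error 0.03, edgeR adjusted p = 0.15), which also passed without X2 batch 2 replicate 3, at -0.07 (edgeR adjusted p = 0.036).

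Pfn2, the profilin best known from neurons, was scarce. Its reads in batch 1 were 28, 18, 15 and 32 for X2, 9, 6, 10 and 3 for CCR7, and 32, 25, 14 and 12 for CCR7-PDPN. In batch 2 they were 16, 22, 15 and 23 for X2, 27, 31, 23 and 16 for X2-PDPN, and 12, 33, 17 and 29 for CCR7-PDPN. The CCR7 libraries alone stood apart, and the other groups overlapped. Pfn2 was lower in CCR7 than in X2 (log2 fold change -1.75, standard error 0.37, edgeR adjusted p = 0.00042), a read ratio of 0.290 (0.183 to 0.447), and higher in CCR7-PDPN than in CCR7 (1.50, standard error 0.38, edgeR adjusted p = 0.0030), a read ratio of 2.84 (1.83 to 4.52). Against X2, CCR7-PDPN did not pass the test in either batch, with read ratios of 0.823 (0.605 to 1.12) in batch 1 and 1.21 (0.886 to 1.67) in batch 2. The PDPN populations of batch 2 differed by 0.04 (standard error 0.25, edgeR adjusted p = 0.90), a 95% interval of -0.46 to 0.54. At most 0.116% of the profilin transcript of a group was Pfn2. Of the other profilins, Pfn4 had 20 to 73 reads per library and Pfn3 had 0 in batch 1.

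Cfl1, the non-muscle cofilin, and Cfl2, which is best known from muscle, both stood highest in CCR7-PDPN. The batch 1 libraries spanned, in TPM of Cfl1, 1952 to 2066 for X2, 2107 to 2340 for CCR7 and 2380 to 2507 for CCR7-PDPN, with no overlap between groups. Those of batch 2 spanned 1898 to 2004 for X2, 1812 to 1876 for X2-PDPN and 2205 to 2366 for CCR7-PDPN, again without overlap. Cfl1 was higher in CCR7 than in X2 (log2 fold change 0.12, standard error 0.03, edgeR adjusted p = 0.0046), higher in CCR7-PDPN than in CCR7 (0.17, standard error 0.03, edgeR adjusted p = 0.00022), and less abundant in X2-PDPN than X2 (-0.09, standard error 0.03, edgeR adjusted p = 0.0025). CCR7-PDPN lay above X2 by 0.29 (standard error 0.03) in the first batch and by 0.25 (standard error 0.03) in the second.

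The level of Cfl2 in batch 1 was 53.7 ± 2.74 TPM (SD, n = 4) for X2, 63.6 ± 2.82 TPM for CCR7 and 68.6 ± 4.29 TPM for CCR7-PDPN. In batch 2 it was 55.9 ± 1.304 TPM for X2, 54.9 ± 2.03 TPM for X2-PDPN and 72.4 ± 2.66 TPM for CCR7-PDPN. Its log2 fold change was 0.24 (standard error 0.05, edgeR adjusted p = 0.00018) in CCR7 against X2, 0.38 (standard error 0.05) and 0.39 (standard error 0.04) in CCR7-PDPN against X2 of batch 1 and batch 2, and 0.43 (standard error 0.04) against X2-PDPN. X2-PDPN did not differ from X2 beyond the spread (-0.03, standard error 0.04, edgeR adjusted p = 0.48). The difference between CCR7-PDPN and CCR7 was small and their libraries overlapped (0.14, standard error 0.05, edgeR adjusted p = 0.018), and it no longer passed without CCR7 replicate 2, CCR7-PDPN replicate 2 or CCR7-PDPN replicate 3 (0.11 to 0.12, edgeR adjusted p = 0.067, 0.078 and 0.066). Cfl2 made up 2.60% to 3.07% of cofilin transcript over the groups, and its share overlapped in 5 of the 6 comparisons.

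Against X2, the cytoplasmic actins went in opposite directions in the populations with CCR7. The TPM of Actb in batch 1 was 5794, 5643, 5670 and 5980 for X2, 4658, 4283, 4681 and 4638 for CCR7, and 4950, 5022, 4971 and 5056 for CCR7-PDPN, with no overlap. That of Actg1 was 336, 333, 311 and 334 for X2, 381, 380, 415 and 409 for CCR7, and 359, 373, 358 and 355 for CCR7-PDPN, again with no overlap. In CCR7 against X2 Actb was lower (log2 fold change -0.34, standard error 0.03, edgeR adjusted p = 4.3e-09) and Actg1 higher (0.27, standard error 0.03, edgeR adjusted p = 1.2e-06). CCR7-PDPN lay between them, with Actb above CCR7 by 0.16 (standard error 0.03, edgeR adjusted p = 0.00027) and Actg1 below it by a log2 fold change of -0.11 (standard error 0.03, edgeR adjusted p = 0.016), the latter not passing without CCR7 replicate 3 (-0.08, edgeR adjusted p = 0.071).

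The TPM of Actb in batch 2 was 6890, 6765, 6021 and 6989 for X2, 6064, 5232, 5969 and 5276 for X2-PDPN, and 5959, 5542, 5271 and 5107 for CCR7-PDPN. Libraries of 1 group were farther apart here, and X2-PDPN overlapped both other groups. Actb was lower than in X2 in X2-PDPN (log2 fold change -0.25, standard error 0.07, edgeR adjusted p = 0.014) and in CCR7-PDPN (-0.27, standard error 0.07, edgeR adjusted p = 0.0087). Actg1 libraries lay close together, with 333, 331, 334 and 331 TPM for X2, 260, 253, 253 and 268 TPM for X2-PDPN, and 367, 365, 354 and 353 TPM for CCR7-PDPN. X2-PDPN was below and CCR7-PDPN above X2, by log2 fold changes of -0.37 (standard error 0.03, edgeR adjusted p = 1.7e-15) and 0.14 (standard error 0.03, edgeR adjusted p = 2.8e-05). The difference between the PDPN populations was 0.50 (standard error 0.03, edgeR adjusted p = 2.0e-20) for Actg1 and -0.02 (standard error 0.07, edgeR adjusted p = 0.87) for Actb, with a 95% interval of -0.16 to 0.13 for the latter.

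The share of Actg1 in the Actb and Actg1 transcript of batch 1 was 5.38% ± 0.170 (SD, n = 4) for X2, 7.98% ± 0.286 for CCR7 and 6.73% ± 0.144 for CCR7-PDPN. In batch 2 it was 4.76% ± 0.334 for X2, 4.405% ± 0.374 for X2-PDPN and 6.18% ± 0.280 for CCR7-PDPN. All populations with CCR7 lay above those without it in their batch, and X2-PDPN overlapped X2. These shares rest on the reads counted for each gene, and reads shared with pseudogenes may be missing from them. The ratio of beta-thymosin to actin transcript in batch 1 was 0.321 ± 0.0140 (SD, n = 4) for X2, 0.417 ± 0.0363 for CCR7 and 0.443 ± 0.0310 for CCR7-PDPN. In batch 2 it was 0.254 ± 0.0187 for X2, 0.280 ± 0.0211 for X2-PDPN and 0.359 ± 0.0310 for CCR7-PDPN. Here too the CCR7 populations did not overlap the others of their batch. The ratio was 1.298 times that of X2 in CCR7, in which Actb was lower and Tmsb10 did not pass the test, and 1.38 and 1.42 times that of X2 in CCR7-PDPN of batch 1 and batch 2, in which Tmsb10 was higher and Actb lower.

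**Figure D2:**
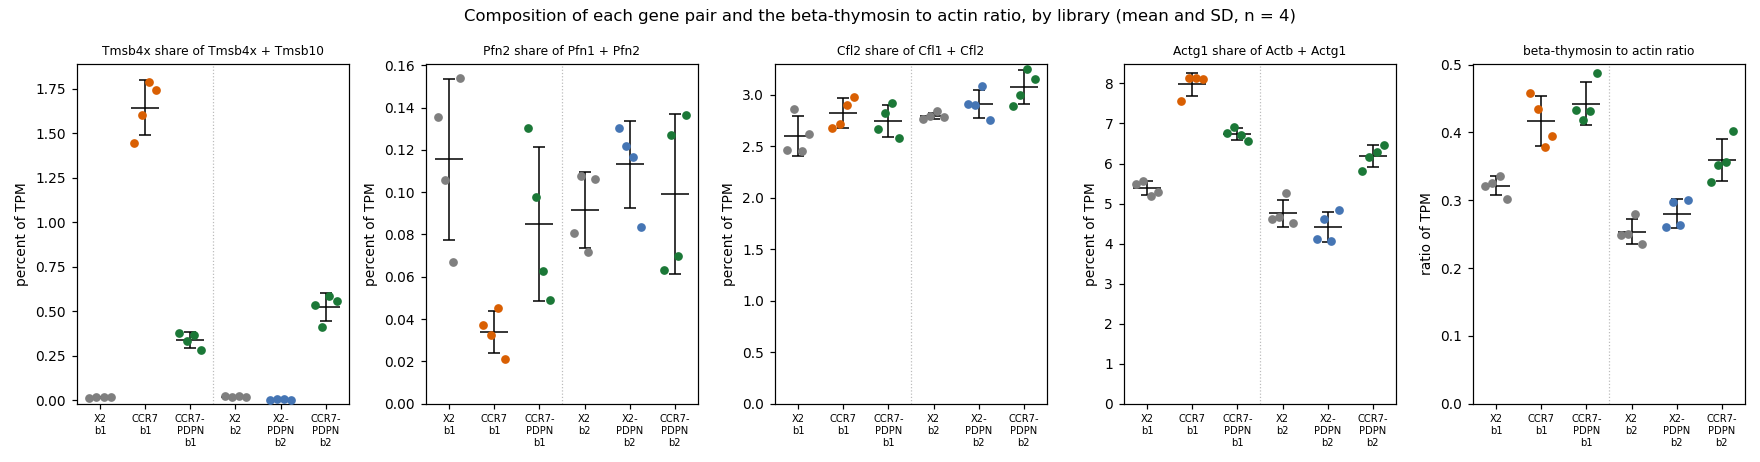
Share of the scarcer gene in each pair, in percent of the TPM of the pair, and the ratio of beta-thymosin to actin TPM (vertical axes), by group on the horizontal axes, batch 1 left and batch 2 right of the dotted line. Points are libraries, bars the mean and SD (n = 4); the Actg1 share is 7.98% in CCR7 and 5.38% in X2, and the Cfl2 share stays between 2.60% and 3.07%.

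Over the members, counts stood as follows against all genes tested. In CCR7 against X2 3 of the 7 other members were higher (24% of 13261 genes were) and 2 lower (25.2%), 5 having no overlap between libraries (44.2%), and 1, Pfn2, was lower past a log2 fold change of 1 (3.18% of genes). In CCR7-PDPN against CCR7 6 of 7 were higher (20.9%) and 1 lower (20.7%), 5 having no overlap (33.9%), with Pfn2 higher past that fold (0.664%). CCR7-PDPN against X2 had 5 higher and 1 lower of 7 in batch 1 (30.3% and 30.6% of genes) and 5 higher and 1 lower in batch 2 (32% and 32.8% of 13314 genes), with Actb lower and Pfn2 not past the test in both and 6 members without overlap in each (58.6% and 57.4% of genes). CCR7-PDPN against X2-PDPN had 5 higher and 0 lower (31.2% and 32%) and 5 without overlap (54.3%). X2-PDPN against X2 had 0 higher (28.2%) and 4 lower (28.5%), with 3 without overlap (50.6%). Nothing is read from such shares over 7 genes. The median log2 fold change of the members counted was 0.05 in CCR7 against X2, 0.17 in CCR7-PDPN against CCR7 and -0.09 in X2-PDPN against X2, beside medians of all genes of 0.0033, -0.0033 and 0.0012.

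**Figure D3:**
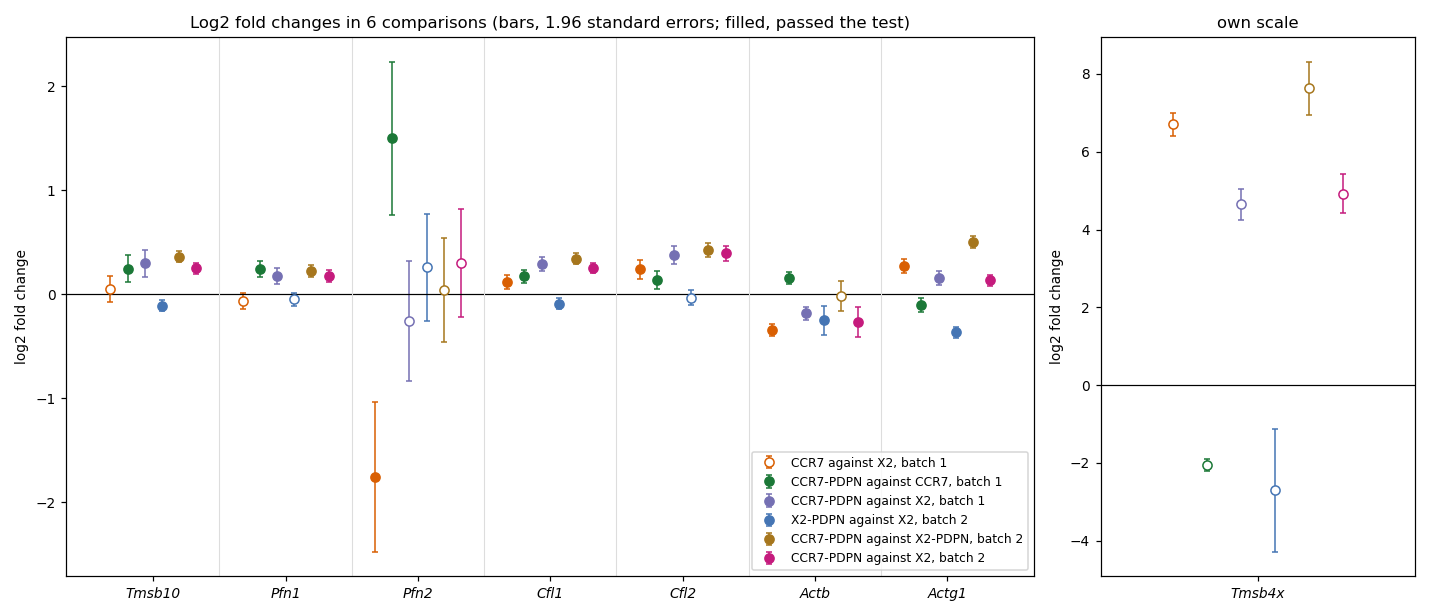
Log2 fold change (vertical axes) of Tmsb10, the profilins, cofilins and actins in the 6 comparisons within a batch, marked by colour in the legend, and of Tmsb4x on its own scale at the right. Bars are 95% intervals and filled points passed the test (edgeR adjusted p under 0.05), which was not applied to Tmsb4x; apart from Pfn2, all members in the left panel lie between -0.37 and 0.50.

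The PDPN difference with CCR7, taken in batch 1, differed from that without CCR7, taken in batch 2. Subtracting the difference of X2-PDPN and X2 (batch 2) from that of CCR7-PDPN and CCR7 (batch 1) gave a value above 0 for all 7 other members, and all 7 passed the test, against 20.3% of 13690 genes higher and 20.5% lower. The values were 0.41 (standard error 0.08, edgeR adjusted p = 0.00029) for Actb, 0.36 (standard error 0.07, edgeR adjusted p = 0.00051) for Tmsb10, 0.30 (standard error 0.05) for Pfn1, 0.27 (standard error 0.04) for Cfl1, 0.26 (standard error 0.04) for Actg1 and 0.17 (standard error 0.06, edgeR adjusted p = 0.013) for Cfl2, whose call was lost without CCR7-PDPN batch 1 replicate 2. Pfn2 was past a log2 value of 1 as well (1.24, standard error 0.47, edgeR adjusted p = 0.032), as were 0.964% of genes, and lost its call when any of 7 libraries was left out. CCR7 was sequenced in batch 1 and X2-PDPN in batch 2, so the batch and the CCR7 state cannot be told apart in this contrast.

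The comparison made in both batches gave the same calls. CCR7-PDPN against X2 of batch 2 minus that of batch 1 was called for 0 of the 7 members (edgeR and DESeq2), as for 0% of genes higher and 0% lower, and 0 of these members had an unadjusted p under 0.05, against 293 of all 13690 genes. The difference between batches was at most 0.08 in size for the members other than Pfn2 (0.56, standard error 0.41) and Tmsb4x (0.27, standard error 0.52, given as a description). Levels themselves moved with the batch: X2 had 5772 ± 154 TPM of Actb (SD, n = 4) and 1957 ± 41.3 TPM of Tmsb10 in the first batch, against 6666 ± 440 and 1768 ± 32.4 TPM in the second.

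In CCR7 against X2 no gene tested around Tmsb4x came near its difference. Of the genes within 5 Mb on either side 25 were tested, and in CCR7 against X2 their log2 fold changes spanned -0.33 to 0.82 with a median of 0.02, and 0 were past the fold in either direction. The nearest, Prps2, which encodes a phosphoribosyl pyrophosphate synthetase, lay 137007 bases away and gave 0.02 (standard error 0.04, edgeR adjusted p = 0.67). In X2-PDPN against X2 the median was -0.11, and Arhgap6 alone was past the fold (-2.47, standard error 0.48, edgeR adjusted p = 2.6e-05), at a mean of -1.64 log2 CPM (counts scaled to library size). Arhgap6 was also lower in CCR7-PDPN than in CCR7 (-2.67, standard error 0.53, edgeR adjusted p = 0.00037), where Tmsb4x stood lower by a log2 difference of -2.05, and than in X2 of both batches (-2.98 and -2.34), where Tmsb4x stood higher. BC022960 was higher in CCR7-PDPN than in X2 (1.52) and X2-PDPN (1.21) of batch 2, and Gm21887 than in CCR7 (1.08). For the other members the medians over their neighbours in CCR7 against X2 lay between -0.06 (Pfn2) and 0.10 (Cfl2).

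**Figure D4:**
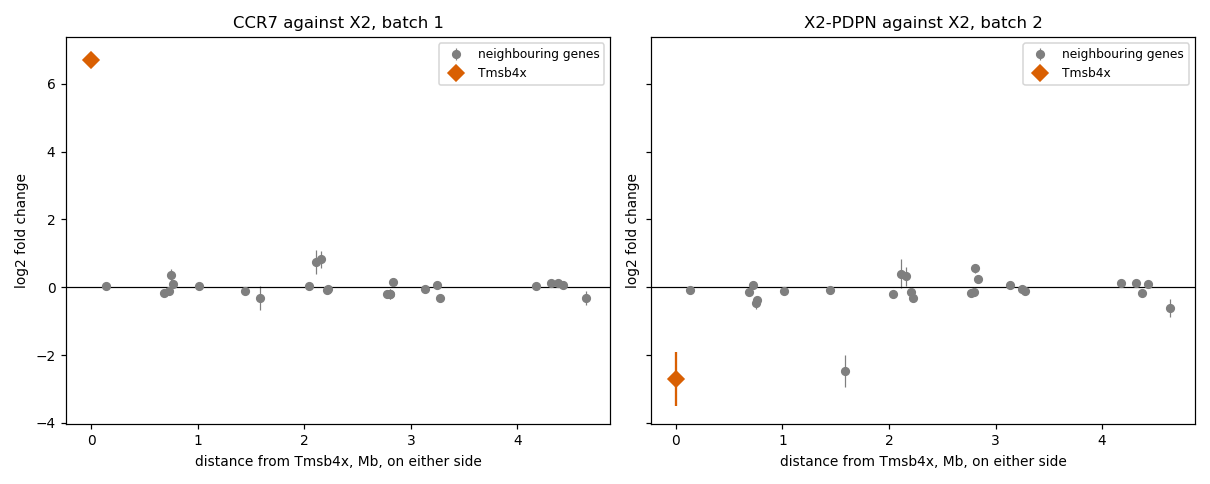
Log2 fold change (vertical axes) of Tmsb4x (diamond) and the 25 genes tested within 5 Mb (circles) against their distance from Tmsb4x in Mb on either side (horizontal axes), in CCR7 against X2 and in X2-PDPN against X2. Bars are 1 standard error; the neighbours span -0.33 to 0.82 in the first comparison, in which Tmsb4x lies at 6.70.

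The genes most like Tmsb4x were found by the distance between their 4 log2 fold changes against X2 of the same batch (CCR7, CCR7-PDPN in each batch and X2-PDPN), over 10617 genes with a mean of at least 1 log2 CPM. Closest was Pcdhgb1, a gamma-protocadherin, at a distance of 2.59, with 4.95, 4.62, 4.199 and -0.94 in CCR7, CCR7-PDPN of batch 1 and of batch 2, and X2-PDPN. It had 3 to 9 reads in X2 and 145 to 211 in CCR7 libraries of batch 1, and the genes of its cluster share exons. Next came Gm13652 (distance 4.98), the collagen-binding receptor gene Mrc2 (5.34), the thioesterase gene Acot11 (5.72) and Mylk, the myosin light chain kinase (6.34). Unlike Tmsb4x, the latter 4 had larger log2 fold changes in CCR7-PDPN than in CCR7, such as 3.64 and 2.40 for Mylk. In X2-PDPN against X2 Mylk (1.66), Mrc2 (1.53) and Acot11 (0.36) had log2 fold changes above 0, where that of Tmsb4x was -2.70.

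Of 115 genes in 7 lists of other actin regulators, 92 were tested in batch 1 and 93 in batch 2. In CCR7 against X2 33 (35.9%) were higher and 24 (26.1%) lower, against 24% and 25.2% of all genes, with a median of 0.06 beside 0.00 for all genes. In X2-PDPN against X2 34 (36.6%) were higher and 31 (33.3%) lower, against 28.2% and 28.5% of all genes, and in CCR7-PDPN against X2-PDPN 48 (51.6%) were higher and 25 (26.9%) lower, against 31.2% and 32% of all genes. The counts of single lists below stand beside these shares of all genes, and nothing is read from so few genes. In CCR7 against X2 1 gene was past a log2 fold change of 1 in each direction, Fhod1 and Actg2. Genes named here had the largest changes of their list among those that passed with a mean of at least 1 log2 CPM. The exceptions are Enah, Acta1, Myl9 and, in CCR7 against X2, Actg2, which are below that mean and were named after their values were seen.

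Among the other actin monomer binders, 7 of 11 tested were higher and 0 lower in CCR7 against X2 (median 0.22). All genes stood at 24% higher and 25.2% lower. In X2-PDPN against X2, 4 of 12 were higher and 4 lower (median 0.02), against 28.2% and 28.5% of all genes. Spire2, which nucleates filaments from monomers, was higher with CCR7 (log2 fold change 0.79, standard error 0.04, edgeR adjusted p = 4.6e-13), from 68.0 ± 1.82 to 117 ± 5.77 TPM (SD, n = 4), and less abundant in X2-PDPN than X2 (-0.47, standard error 0.05). Mtss1, a membrane-bending actin binder, was higher in both, at 0.37 and 0.64, as was Wipf1, a partner of WASP, at 0.26 and 0.36, and Spire1 was lower in X2-PDPN (-0.34).

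The controllers of cofilin split. In CCR7 against X2 8 of 21 were higher and 6 lower (median 0.07), and in X2-PDPN against X2 7 were higher and 9 lower (median -0.04). Among the slingshot phosphatases, which activate cofilin, Ssh2 (0.44 and 0.64) and Ssh1 (0.23 and 0.16) were higher in both, while Ssh3 was lower with CCR7 (-0.43) and higher with PDPN (0.45). Pak1, a kinase upstream of the LIM kinases that inactivate cofilin, was lower in both (-0.60 and -0.28), from 44.7 ± 0.566 TPM in X2 to 29.6 ± 1.27 in CCR7 (SD, n = 4). Coro1c, a coronin, was higher with CCR7 (0.17) and lower in X2-PDPN (-0.22).

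Of the Arp2/3 complex and its activators, which branch filaments, 8 of 19 were higher and 3 lower in CCR7 against X2 (median 0.07), and 6 higher and 6 lower in X2-PDPN against X2 (median -0.00040). In CCR7-PDPN against X2-PDPN 16 of 19 were higher and 2 lower (median 0.16), against 31.2% and 32% of all genes. In that comparison the other monomer binders had 9 higher and 0 lower of 12, and cofilin control 8 and 6 of 21. Formins and Ena/VASP had 6 and 5 of 13, and capping and severing proteins 7 and 2 of 11. Other actins had 0 and 2 of 3, and MRTF and SRF with targets 2 and 8 of 14. Actr3, a core subunit, was lower in CCR7 (-0.24) and in X2-PDPN (-0.63), its level being 310 ± 5.41 TPM for X2 of batch 2 and 200.7 ± 4.28 TPM for X2-PDPN (SD, n = 4). The WAVE genes Wasf1 (0.38 and 0.36 in the respective comparisons) and Wasf2 (0.21 and 0.54) were higher, whereas Brk1 of the WAVE complex was lower in both (-0.20 and -0.09) and Abi1 in X2-PDPN (-0.20). Cyfip2 of the same complex was higher in CCR7 than in X2 (0.67) but lower in CCR7-PDPN than in CCR7 (-3.21) and X2 (-2.54 and -2.61 in the respective batches). Its level was 4.73 ± 0.239 TPM for X2, 7.55 ± 0.761 TPM for CCR7 and 0.801 ± 0.137 TPM for CCR7-PDPN of batch 1 (SD, n = 4), and X2-PDPN did not pass against X2 (0.08, edgeR adjusted p = 0.42).

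Formins and Ena/VASP proteins, which elongate filaments from profilin-bound actin, had 4 higher and 3 lower of 12 in CCR7 against X2 (median -0.02) and 5 higher and 3 lower of 13 in X2-PDPN against X2 (median 0.02). Fhod1 was higher in CCR7 (1.01, standard error 0.06, edgeR adjusted p = 1.5e-10), rising from 39.4 ± 1.38 to 79.5 ± 7.68 TPM (SD, n = 4), as was Fhod3 (0.48), and the diaphanous formins Diaph3 (-0.38) and Diaph1 (-0.13) were lower. Neighbouring genes on the chromosome were examined for the members only, so whether those around Fhod1 and Spire2 rose with them was not tested. In X2-PDPN Inf2 (0.36) and Fmnl3 (0.30) were higher and Evl (-0.27) and Diaph1 (-0.21) lower. Enah lies far out in the plot of the lists with 4.98 (standard error 0.57) in X2-PDPN, on 19 to 23 reads per library against 0 to 2 in X2, and was named after its value was seen.

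Capping and severing proteins had 3 higher and 4 lower of 12 in CCR7 against X2 (median -0.07), and 3 higher and 5 lower of 11 in X2-PDPN against X2 (median -0.0045). Tmod3, which caps pointed ends, was higher in CCR7 (0.80, standard error 0.03, edgeR adjusted p = 5.8e-15) and less so in X2-PDPN (0.28), from 28.4 ± 0.503 TPM in X2 of batch 1 to 49.6 ± 0.770 in CCR7 (SD, n = 4). Add1 was higher (0.10 and 0.18) and Capg (-0.34 and -0.33) and Eps8 (-0.45 and -0.59) lower in both. Gsn, the gene of gelsolin, was lower with CCR7 (-0.25) and higher in X2-PDPN (0.21), in which Tmod1 was lower (-0.67).

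Among other actins 3 genes were tested. The smooth muscle actins Acta2 (0.85, standard error 0.04, edgeR adjusted p = 1.3e-22) and Actg2 (2.76, standard error 0.11, edgeR adjusted p = 1.3e-24) were higher in X2-PDPN than in X2, as was Acta1, the skeletal muscle actin (0.56, standard error 0.23, edgeR adjusted p = 0.034). The level of Actg2 was 24.02 ± 1.61 TPM (SD, n = 4) for X2-PDPN, 3.80 ± 0.0577 and 3.45 ± 0.487 TPM for CCR7-PDPN of the respective batches and 1.51 ± 0.506 TPM for CCR7. That of Acta2 in batch 2 was 56.7 ± 1.08 TPM for X2, 102 ± 2.01 TPM for X2-PDPN and 24.4 ± 0.965 TPM for CCR7-PDPN. Acta2 (-0.22) and Actg2 (-1.38) were lower in CCR7 than in X2 and Acta1 was higher (0.57).

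MRTF coactivators, which actin monomers hold back, their DNA-binding partner SRF and their targets had 2 higher and 6 lower of 14 in CCR7 against X2 (median -0.04), and 6 higher and 4 lower in X2-PDPN against X2 (median 0.13). Ccn1 and Ccn2, matricellular protein genes, were lower in both, Ccn1 by log2 fold changes of -0.88 (standard error 0.04, edgeR adjusted p = 3.3e-13) and -0.88, and Ccn2 of -0.75 and -0.97. In CCR7-PDPN they were at 48.3 ± 2.08 and 5.67 ± 0.842 TPM of batch 1, against 177 ± 5.67 and 22.1 ± 0.883 in X2 (SD, n = 4). Tpm1, a tropomyosin gene (0.26 and 0.28), and Mrtfb (0.13, edgeR adjusted p = 0.0496, and 0.26) were higher in both. Myl9 of this list had few reads, with 12 to 19 per library in X2 of batch 2 and 41 to 66 in X2-PDPN. Its levels there were 1.77 ± 0.373 and 5.30 ± 0.482 TPM (SD, n = 4). Actb and Actg1, which are also SRF targets, are described above and were not counted in this list.

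**Figure D5:**
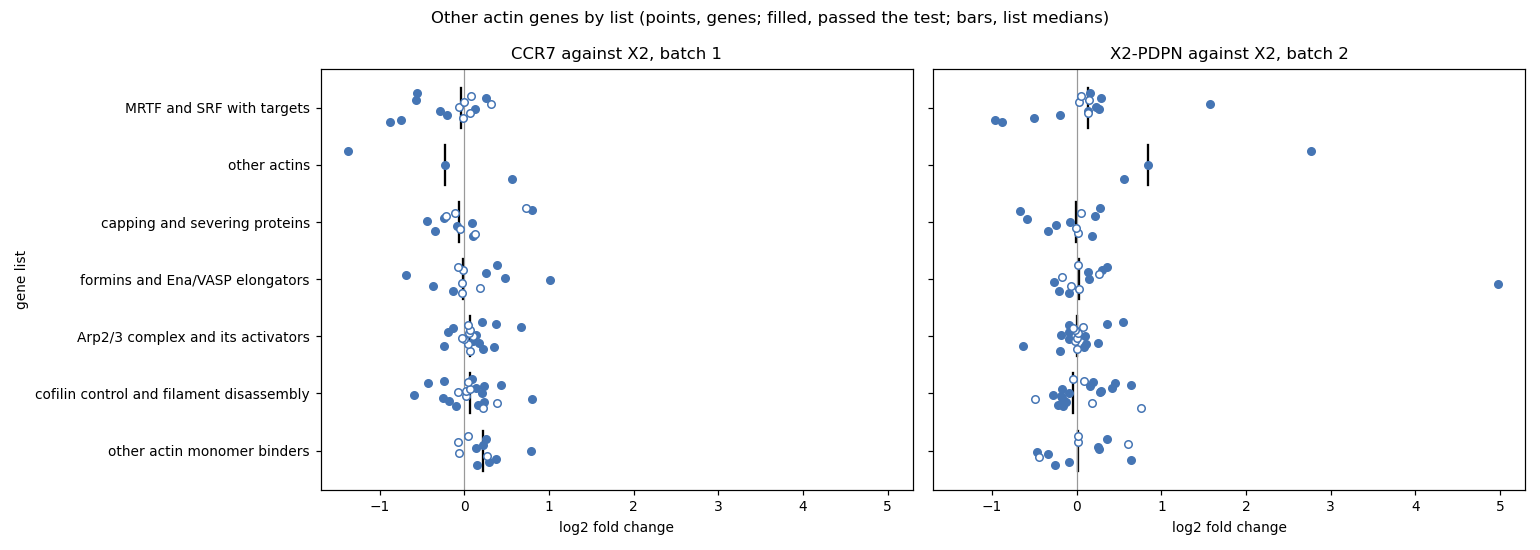
Log2 fold change (horizontal axes) of the genes tested in 7 lists of other actin regulators (vertical axis) in CCR7 against X2 and in X2-PDPN against X2. Each point is a gene, filled where it passed the test, and black bars are list medians, which lie between -0.22 and 0.22 in CCR7 against X2; the farthest point, at 4.98 in X2-PDPN against X2, is Enah.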

How the data were processed

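Polyadenylated RNA of 24 EO771 libraries was sequenced with a stranded kit as single-end 75 base reads. The authors mapped reads to GRCm38/mm10 and deposited raw counts per Ensembl gene, unnormalised and with replicates unpooled, in 1 table per batch; 0 sample columns were left unused. The aligner and the settings for shared and antisense reads are not given in the sources used here. Library totals were 22275468 to 33395418 counts in batch 1 and 22788542 to 35721027 in batch 2.

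TPM was computed from the deposited counts and gene lengths. edgeR 4.0.16 in R 4.3.3 (TMM, filterByExpr, robust quasi-likelihood fits, Benjamini-Hochberg) tested the 3 groups of a batch together over 13261 or 13314 genes, and over 13690 genes and all libraries for the 2 differences between comparisons. A gene passed at an adjusted p under 0.05, and the fold rule added an absolute log2 fold change above 1. Shares and ratios are per library, with no test. Tmsb4x was to be tested in X2-PDPN against X2, which was dropped because the gene passes the low-count filter there through CCR7-PDPN alone. On simulated data in which 200 of 13080 genes were changed by a log2 fold change of 1, CCR7 against X2 recovered 200 and called 9 unchanged genes. The changed genes were drawn from those with more reads, so recovery of smaller changes and of scarce genes such as Pfn2 was not tested. The members and lists were chosen with earlier results of these data known. Named genes were the 8 members, rows sharing their sequence, the 2 largest rises and falls of each list in CCR7 against X2 and X2-PDPN against X2 (mean of at least 1 log2 CPM), and the 5 genes with a pattern most like Tmsb4x. The lists are other actin monomer binders, cofilin control, Arp2/3, formins and Ena/VASP, capping and severing proteins, other actins, and MRTF and SRF with targets. Alternatives were DESeq2 1.42.0, other scalings and filters, only the groups compared, a replicate block, pseudogene counts added and each library left out. Same-numbered libraries did not deviate together (24 pairs, r -0.12 to 0.11), so the numbers were not taken as pairs. Coordinates and transcripts came from GENCODE M21, promoters from RefSeq.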

Additional observations from a re-analysis of the deposited data

Results flagged for a closer look

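In 78 groups of 4 values (8 genes and 5 ratios in 6 groups), 6 had a library farther from the rest than the 95% critical value of Dixon's test, which chance passes in about 1 of 20 groups. Tmsb10 had 2633 TPM in CCR7-PDPN batch 1 replicate 4, against 2247 to 2293 in the others. Pfn1 had 758 TPM in X2 batch 1 replicate 1 against 747 to 748, and Cfl2 68.4 TPM in CCR7-PDPN batch 2 replicate 1 against 73.2 to 74.1. Actb had 4283 TPM in CCR7 batch 1 replicate 2 against 4638 to 4681, and Actg1 311 TPM in X2 batch 1 replicate 3 against 333 to 336. The Actg1 share was 7.56% in CCR7 batch 1 replicate 1 against 8.10% to 8.14%.

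The PDPN difference with CCR7 minus that without passed the test (edgeR) for 7 genes, at log2 values of 0.36 for Tmsb10, 0.30 for Pfn1, 1.24 for Pfn2, 0.27 for Cfl1, 0.17 for Cfl2, 0.41 for Actb and 0.26 for Actg1. Its 2 sides come from different batches, so the batch and the CCR7 state cannot be told apart.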

How the results depend on the processing

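Requiring an absolute log2 fold change above 1 left 1 member in CCR7 against X2, CCR7-PDPN against CCR7 and the PDPN difference with CCR7 minus without, and 0 in the other comparisons. Under the other planned settings (DESeq2, other factors, no filter on low counts, only the groups compared, pseudogene rows added) every member count stayed within 1.5 times. The replicate numbers do not pair the libraries, and with the replicate block no call of a member changed (5 members passed in CCR7 against X2, and Tmsb4x stood at 6.71). For Tmsb4x DESeq2 gave -2.99 in X2-PDPN against X2, 7.96 in CCR7-PDPN against X2-PDPN and 0.93 in the PDPN difference, and leaving out 1 library gave -3.15 to -2.37, 7.29 to 8.08 and 0.32 to 1.10. With the 2 groups alone it did not pass the low-count filter in X2-PDPN against X2, which gives no value there. Values near 0 changed sign when 1 library was left out: Tmsb10 in CCR7 against X2 (-0.010 to 0.083), Pfn2 (-0.14 to 0.21) and Actb (-0.063 to 0.022) in CCR7-PDPN against X2-PDPN, and, between batches, Tmsb10 (-0.074 to 0.013), Pfn1 (-0.025 to 0.016, and 0.0023 with library totals) and Cfl2 (-0.018 to 0.039). The Pfn2 share difference in CCR7-PDPN against X2 of batch 2 ran from -0.0048 to 0.020 percentage points. Without CCR7-PDPN batch 1 replicate 2 the PDPN difference of Cfl2 lost its call (0.14, edgeR adjusted p = 0.0501). That of Pfn2 lost its call (0.98 to 1.18, edgeR adjusted p = 0.058 to 0.11) without CCR7 replicate 2 or 4, CCR7-PDPN batch 1 replicate 1 or 2, X2 batch 2 replicate 2 or 4, or X2-PDPN replicate 4. From raw counts, without gene length, the CCR7 minus X2 difference was 1.75 points for the Tmsb4x share and -0.12 for the Pfn2 share. The difference in beta-thymosin to actin ratio was then 0.0458 in CCR7 against X2, 0.0580 and 0.0505 in CCR7-PDPN against X2 of each batch, and 0.0378 in CCR7-PDPN against X2-PDPN. The causes were not tested. Depth limits Tmsb4x outside the CCR7 populations and Pfn2 throughout.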
